A study of Mus musculus with 48 samples.

Results

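Gene expression was compared between mouse embryonic stem cells labelled as a double knockout of Mll3 and Mll4 (dKO) and cells labelled as carrying catalytically deficient Mll3 and Mll4 (dCD), so that loss of the proteins stood beside loss of their enzyme activity. All genes with at least 1 TPM (transcripts scaled to a fixed total per library) in at least 3 of these 6 libraries were compared, which kept 15542 of the 48321 genes in the deposited table (32.2%). The series holds 48 samples of ChIP-seq, ATAC-seq, nascent RNA and RNA-seq, of which 9 are RNA-seq libraries: 3 of dKO, 3 of dCD and 3 of the unedited wild type (WT). WT values are given here only as a description. Every line derives from R1, a male embryonic stem cell line of strain 129SV, and was grown in serum-free N2B27 medium with LIF and with the inhibitors PD0325901 of MEK and CHIR99021 of GSK3 (2i). No other allele or agent is named. Polyadenylated RNA was captured on oligo(dT) beads. The labels name 1 line per genotype, give no clone number and leave unstated which bases of Mll3 and Mll4 were edited, so the effect of a clone and that of its genotype cannot be told apart. Whether replicate libraries came from separate cultures is not stated either. The p-values below therefore speak only of how far libraries of a line scatter, and that scatter may be technical.

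Mll3 and Mll4, encoded by Kmt2c and Kmt2d, are large histone methyltransferases that place monomethylation on lysine 4 of histone H3, a mark of enhancers. Each works inside a COMPASS complex that shares the core subunits Wdr5, Rbbp5, Ash2l and Dpy30 with the other H3K4 methyltransferases and carries the H3K27 demethylase Utx (Kdm6a). A knockout takes away the enzyme and the surface on which its partners assemble, while a catalytic mutation is meant to remove methylation and keep the protein. In 2i medium with LIF, embryonic stem cells are held in a naive pluripotent state, with low DNA methylation and with lineage genes such as the Hox clusters mostly silent.

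The 6 libraries held 25956251 to 56249770 reads, as recovered from the TPM values, and a tested gene had a median of 500 to 1019 reads per library. Pearson's r over genes, which are no replicates of each other, was 0.9952 to 0.9964 for pairs within a line and 0.946 to 0.9486 for a dKO with a dCD library. Of the tested genes, 13426 reached 1 TPM in all 6 libraries, while 289 were kept by the dKO libraries alone and 613 by the dCD libraries alone. Just inside the limit were Kcns1, with 1.0, 1.007 and 1.189 TPM in dKO and 0.544, 0.533 and 0.608 TPM in dCD, and Cpb2, with 0.175, 0.137 and 0.078 TPM in dKO and 1.001, 1.822 and 1.36 TPM in dCD. Just outside were Rgs14, with 0.259, 0.406 and 0.231 TPM in dKO and 0.999, 1.202 and 1.065 TPM in dCD, and Krt13, with 1.419, 0.999 and 1.581 TPM in dKO and 0.607, 0.51 and 0.388 TPM in dCD.

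The targeted genes were examined first. Kmt2c stood at 8.0, 7.55 and 7.44 TPM in dKO libraries 1 to 3 and at 28.6, 25.3 and 27 TPM in dCD, with a WT mean of 21.1 TPM. All dKO libraries lay below all dCD libraries, and log2 of dKO over dCD was -1.69, with an SE of 0.0550 and an adjusted p by limma of 4.45e-08. Kmt2d was higher in dKO, at 84.8, 80.5 and 83.5 TPM against 67.2, 54.6 and 67.8 TPM in dCD (log2 difference 0.39, SE 0.0760, limma adjusted p = 0.00171). These libraries did not overlap either, and the Kmt2d transcript was thus present in the line labelled as its knockout. Reads outside an edited stretch do not test an edit, so the Kmt2d values do not check the label.

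Differences between the lines were frequent and mostly small. Fold changes are given as log2 of dKO over dCD on log2(TPM + 1), so that positive values mean higher in dKO; the added 1 understates the change of low genes. By limma, 11049 genes passed an adjusted p under 0.05 (71.1% of those tested), 6836 of them higher in dKO (44.0%) and 4213 higher in dCD (27.1%). The counts of gene lists below stand against these shares. Libraries of the lines did not overlap for 11593 genes (74.6%). The median size of the log2 fold change was 0.30, and 74.7% of genes differed by less than 1.5-fold. Large differences ran the other way from small ones: of 1765 genes that also differed at least 2-fold (11.4%), 580 were higher in dKO (3.73%) and 1185 higher in dCD (7.62%). At 4-fold the counts were 78 and 299, and at 16-fold 6 and 14. The split of all passing genes depended on where the values were centred. The median log2 fold change of all genes was 0.10, and after median-ratio scaling, which by construction moved it to 0.00, 49.2% of passing genes were higher in dKO in place of 61.9%, with 5227 higher in dKO and 5400 higher in dCD. The excess of dKO was present after quantile normalization (6354 and 4562, 58.2%) and with voom (6585 and 4553, 59.1%). The excess of dCD at 2-fold was present with that scaling too, at 486 higher in dKO and 1336 higher in dCD. It also held with only the genes at 1 TPM or more in all 6 libraries, an alternative chosen after seeing the data, at 436 and 695.

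**Figure D1:**
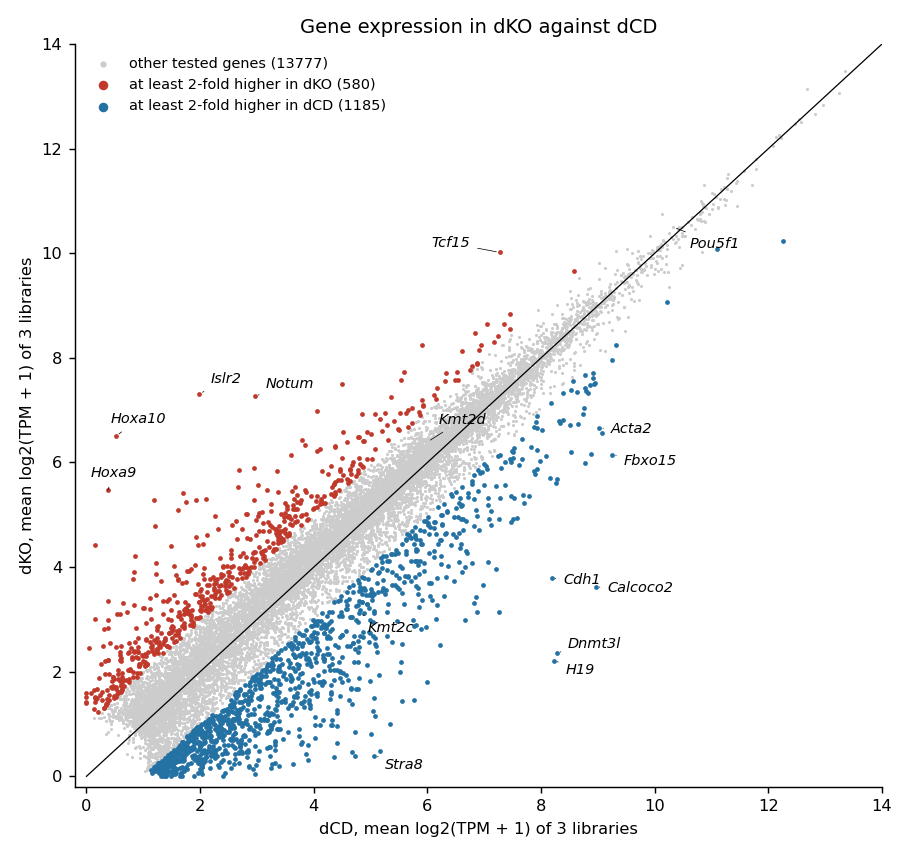
Each point is 1 of the 15542 tested genes, with the mean log2(TPM + 1) of the 3 dCD libraries on the x axis and of the 3 dKO libraries on the y axis. Red points are the 580 genes at least 2-fold higher in dKO, blue points the 1185 at least 2-fold higher in dCD, and the line marks equal values; Hoxa10 and Islr2 lie far above it, and H19, Dnmt3l and Cdh1 far below it.

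The largest excesses in dKO belonged to the homeobox gene Hoxa10 (5.98), the neuronal membrane protein gene Islr2 (5.32), Hoxa9 (5.09) and Notum (4.31), whose product is a secreted enzyme that inactivates Wnt proteins. Islr2 stood at 161.4, 153.6 and 158.2 TPM in dKO and at 3.03, 2.93 and 2.94 TPM in dCD, with a WT mean of 18.3 TPM (SE 0.0353, limma adjusted p = 5.97e-11). Notum stood at 156.9, 149.8 and 152.7 TPM in dKO and at 6.93, 6.47 and 6.97 TPM in dCD, with a WT mean of 44.1 TPM. WT thus lay between the lines for both genes, and the dKO values were several times above it. The antisense gene Notumos had a log2 fold change of 4.10, but without a stated strand setting its reads and those of Notum cannot be told apart. The 12 largest excesses also held Hoxa11 (4.28), Hoxa7 (3.49) and Hoxa5 (3.48), described with their cluster. The others were the germ cell gene Tex13 (3.72), the neural transcription factor gene Olig3 (3.57), Abca1 (3.36), whose product exports cholesterol from cells, and the cytochrome P450 gene Cyp2b23 (3.19). Tcf15, a transcription factor gene expressed as cells leave the naive state, combined a high level with a large difference: it reached 1078.5, 1020.5 and 1002.7 TPM in dKO and 148.2, 153.0 and 160.7 TPM in dCD, close to the WT mean of 158.9 TPM (2.74).

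The largest excesses in dCD belonged to the imprinted noncoding RNA H19 (-6.01) and to Dnmt3l (-5.91), which assists the enzymes that set new DNA methylation. H19 stood at 308.8, 292.1 and 294.1 TPM in dCD and at 4.03, 3.37 and 3.54 TPM in dKO, with a WT mean of 11 TPM (SE 0.0538, limma adjusted p = 1.13e-10). The dCD libraries were far above both other lines for H19. Dnmt3l, in contrast, was high in WT too, at a mean of 553.4 TPM, with 306.7, 313.8 and 305.7 TPM in dCD and 3.85, 4.91 and 3.74 TPM in dKO (SE 0.0766, limma adjusted p = 5.25e-10). Calcoco2, an autophagy receptor gene (-5.34), Stra8, the gene that opens meiosis in germ cells (-4.66), and Cdh1, which encodes the epithelial cadherin (-4.40), followed. Further down came Ak7 (-4.35), Khdc3 (-4.33), Aire (-4.31), Myh13 (-4.22), Cidea (-4.19), B4galnt3 (-4.18) and Tcl1 (-4.11). For each of the genes from Calcoco2 to Tcl1 the dKO mean was the lowest of the 3 lines: Calcoco2, for example, had a mean of 11.3 TPM in dKO, 497.6 TPM in dCD and 316.1 TPM in WT.

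**Figure D2:**
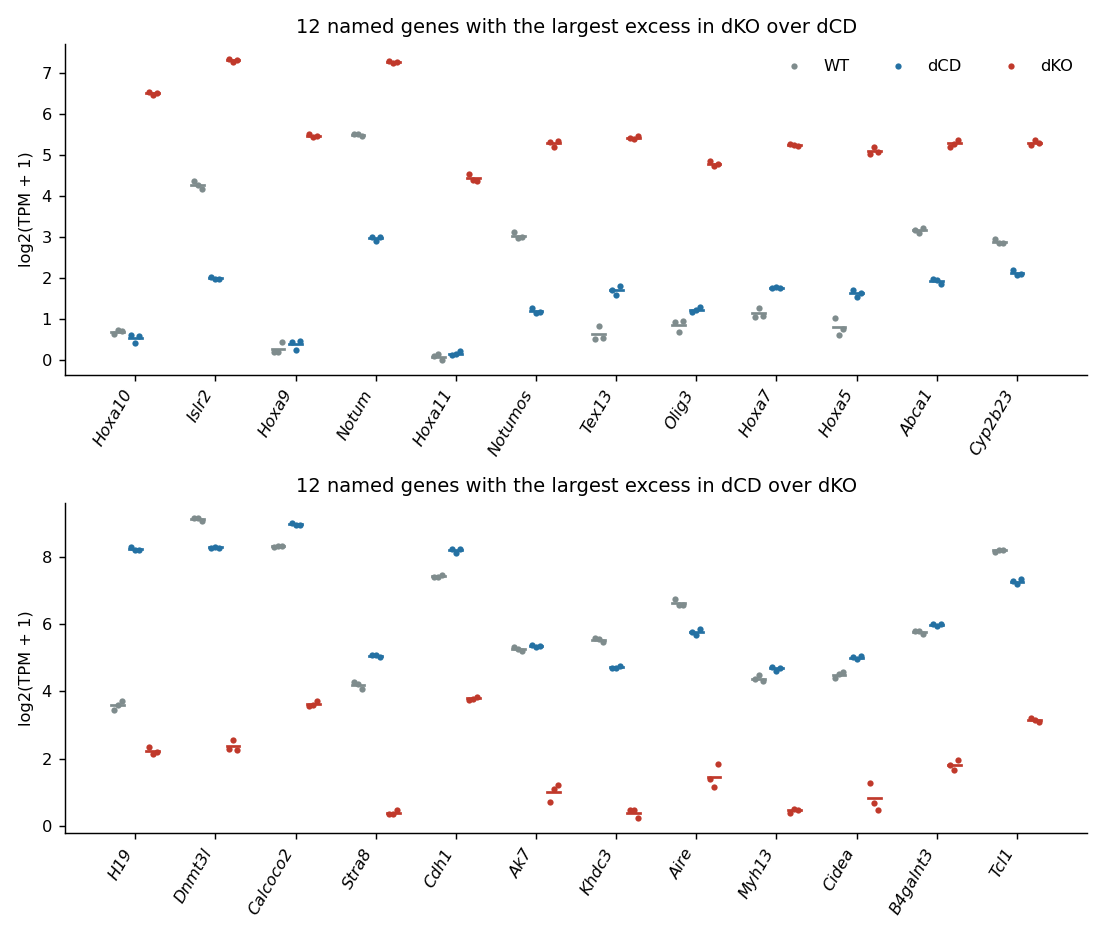
Values of log2(TPM + 1) in each RNA-seq library for the 12 named genes with the largest excess in dKO (top) and in dCD (bottom), with points for libraries and a short line for the mean of each line of cells. WT (grey) lies near dCD (blue) for most genes of the lower panel, with H19 as the exception, where WT lies near dKO (red).

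The Hox genes, homeobox transcription factors that lay out the body axis and stand in 4 clusters, differed in blocks. All 11 tested Hoxa genes and the adjoining Evx1 were at least 2-fold higher in dKO, with a median log2 fold change of 2.56, against 3.73% of all tested genes. Hoxa10 stood at 92.5, 86.8 and 89.9 TPM in dKO and at 0.507, 0.316 and 0.487 TPM in dCD (SE 0.0642, limma adjusted p = 2.52e-10). Hoxa9 stood at 44.5, 42.6 and 43.0 TPM in dKO and at 0.347, 0.185 and 0.37 TPM in dCD. Both genes were near 0 in dCD as in WT, whose means were 0.607 and 0.202 TPM. The differences were largest in the middle to posterior part of the cluster and smaller at both ends. In cluster order from the anterior end, Hoxa2 had 1.52, Hoxa3 1.55, Hoxa4 1.55, Hoxa5 3.48, Hoxa6 2.61, Hoxa7 3.49, Hoxa9 5.09, Hoxa10 5.98, Hoxa11 4.28 and Hoxa13 2.52, and Evx1 had 2.23. Of the 12 genes, 6 passed the filter on low values through the dKO libraries alone. The noncoding RNAs Hotairm1 (1.14) and Hoxa11os (2.41), which lie within the cluster, were also at least 2-fold higher in dKO, and reads of Hoxa11os and of the overlapping Hoxa11 cannot be told apart.

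The promoter of Hoxa10, the gene with the largest excess in dKO, is shown as the 250 bases before the first of its 2 RefSeq start sites (GRCm38.p6, chr6:52240855-52241104, minus strand), with CG pairs, the sites of DNA methylation, in capitals.
Hoxa10: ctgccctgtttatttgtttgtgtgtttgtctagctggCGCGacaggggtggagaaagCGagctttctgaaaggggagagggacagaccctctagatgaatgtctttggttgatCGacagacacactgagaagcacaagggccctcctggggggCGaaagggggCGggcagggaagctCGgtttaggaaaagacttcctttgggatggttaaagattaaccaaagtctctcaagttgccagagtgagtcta
It holds 7 CG pairs, where the median over all RefSeq promoter windows of this length was 6 and the middle range 2 to 16; 92.1% of them hold at least 1. The count is a description and no methylation was measured here.

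The other Hox clusters did not differ alike. In the Hoxc cluster all 9 genes were higher in dKO, 8 of them at least 2-fold, with a median of 1.87, and 5 of the 9 passed the filter through the dKO libraries alone. Hoxc10 (2.97) and Hoxc11 (2.96) had the largest differences. Hoxc10 stood at 13.5, 11.7 and 13.1 TPM in dKO and at 0.821, 0.595 and 0.864 TPM in dCD. Hoxc11 stood at 9.52, 8.91 and 9.06 TPM in dKO and at 0.137, 0.409 and 0.379 TPM in dCD. By the ratio of mean TPM Hoxc11 differed more, 29.7-fold against 16.8-fold for Hoxc10. Hoxc12 and Hoxc13 were already expressed in WT, at means of 12.1 and 15.5 TPM, and stood at 1.87 and 1.56. In the Hoxd cluster 5 of 10 listed genes were tested and all 5 were at least 2-fold higher in dKO, with a median of 1.49, and 2 of them, Hoxd10 and Hoxd11, passed the filter through the dKO libraries alone; Hoxd13 stood at 15.1, 14.4 and 14 TPM in dKO and at 5.16, 5.99 and 5.63 TPM in dCD. In the Hoxb cluster only 4 of 10 genes reached the filter, and Hoxb13, at its posterior end, was the 1 with an excess in dKO: 11.9, 12.7 and 13.0 TPM against 2.01, 1.97 and 2.19 TPM (2.15). Hoxb4 was higher in dCD (-0.44), while Hoxb7 (0.17, limma adjusted p = 0.294) and Hoxb9 (-0.04, limma adjusted p = 0.779) did not pass. Subunits of Polycomb repressive complex 2, which deposits the H3K27 methylation found on silent Hox clusters, were higher in dCD for 8 of 11 and higher in dKO for 2, with a median of -0.24. Its accessory subunits Aebp2, Mtf2 and Phf19 had log2 fold changes of -0.96, -0.93 and -0.89, and Jarid2 had 0.33. Of its core genes Ezh2, which encodes the main enzyme, had 0.19, while Eed had -0.49 and Suz12 -0.15. Whether these levels bear on the Hox genes was not tested. Complex 1 genes numbered 10 higher in dKO and 5 higher in dCD of 20, near the shares of 44.0% and 27.1% of all tested genes. After median-ratio scaling the counts were 6 and 7.

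**Figure D3:**
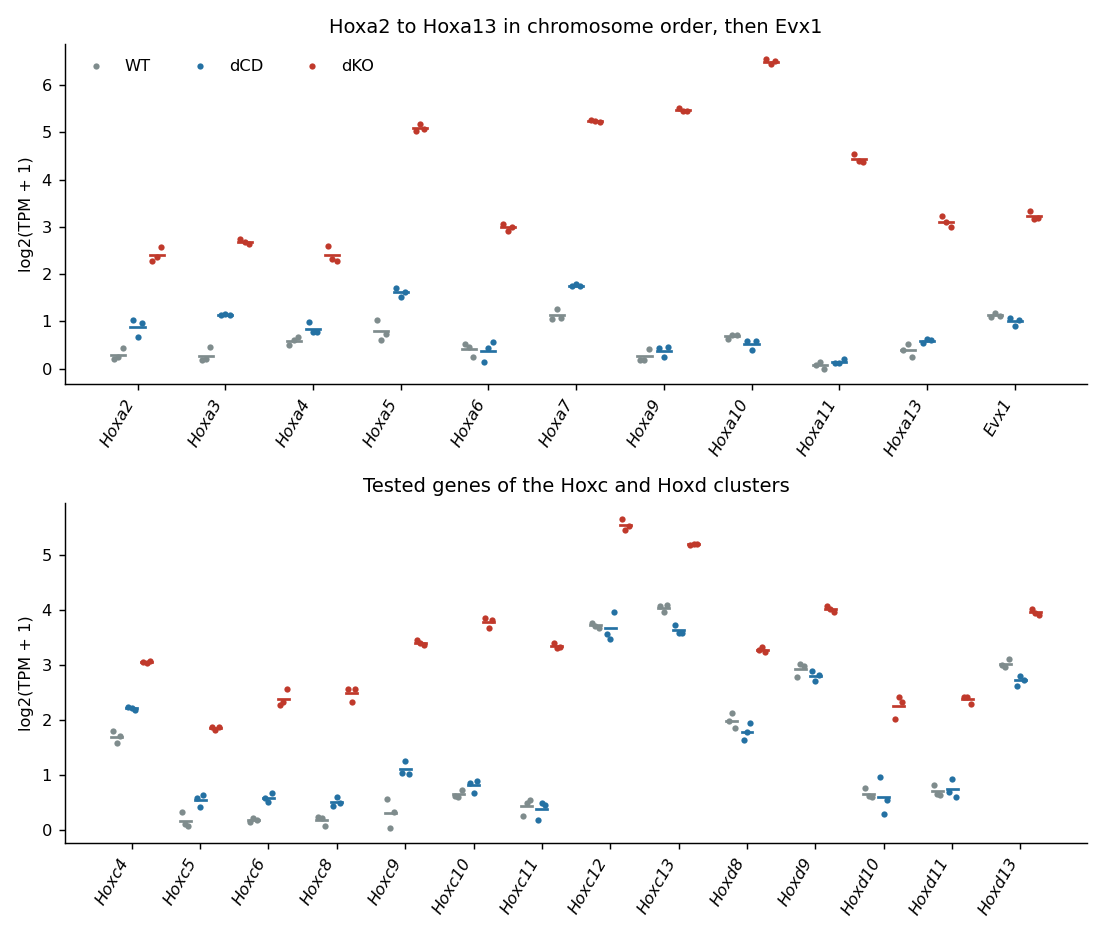
Values of log2(TPM + 1) in each library for Hoxa2 to Hoxa13 and Evx1 in chromosome order (top) and for the tested Hoxc and Hoxd genes (bottom); points are libraries and short lines are means. The dKO points (red) lie above the dCD (blue) and WT (grey) points for every gene shown, and the gap is widest at Hoxa9 and Hoxa10.

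Genes of the 2-cell-like state, a set that is active in the mouse embryo after its first division and in rare cells of embryonic stem cell cultures, were higher in dCD throughout. All 23 tested members of the list passed in that direction, 19 of them at least 2-fold, with a median of -1.62; over all tested genes 27.1% passed higher in dCD and 7.62% did so at 2-fold. Duxf3, a member of the Dux family of activators of this state, stood at 3.11, 2.99 and 3.34 TPM in dCD and at 0.287, 0.262 and 0.214 TPM in dKO (-1.72). The Zscan4 genes, which act on telomeres, had log2 fold changes of -2.98 (Zscan4a) to -1.53 (Zscan4b), and Zscan4d stood at 20.6, 21.6 and 21.2 TPM in dCD and at 2.83, 3.18 and 3.09 TPM in dKO. Tmem92 had the largest difference of the set, at 27.2, 23.6 and 26.7 TPM in dCD and 1.65, 2.87 and 2.16 TPM in dKO (-3.07). WT means were 0.242 TPM for Duxf3, 1.63 TPM for Zscan4d and 2.15 TPM for Tmem92, so WT stood near dKO for these genes. The Usp17l genes, a family of deubiquitinases, had values of -2.01 (Usp17lc) to -1.06 (Usp17la), and the zinc finger gene Zfp352 had -1.27. The translation factor gene Eif1a, the abundant member of the list, differed least (-0.40). Members of the Zscan4 and Usp17l families resemble each other closely and their single values are uncertain, and 10 of the 23 genes passed the filter through the dCD libraries alone. In bulk RNA, more cells in such a state and more of this RNA per cell cannot be told apart.

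The 250 bases before the start of Zscan4d (GRCm38.p6, chr7:11166149-11166398, minus strand) are shown as those of Hoxa10 were, with CG pairs again in capitals. A single gene from each direction does not describe the promoters of that direction.
Zscan4d: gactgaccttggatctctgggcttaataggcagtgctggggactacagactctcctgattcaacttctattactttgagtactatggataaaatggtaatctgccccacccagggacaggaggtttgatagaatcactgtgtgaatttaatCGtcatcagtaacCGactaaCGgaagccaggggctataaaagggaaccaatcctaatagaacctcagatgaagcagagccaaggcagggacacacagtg
This stretch holds 3 CG pairs, below the median of 6 over all windows and inside their middle range of 2 to 16. The CpG ratio divides the CG pairs of a window by the number its C and G content would give. Its median was 0.66 for genes at least 2-fold higher in dKO and 0.54 for those higher in dCD. Both lay below the median of 0.76 for all tested genes with a window.

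Genes of the contractile cytoskeleton were higher in dCD. Of 24 tested smooth muscle genes and targets of SRF, a transcription factor that answers to the actin pool, 19 were higher in dCD and 4 in dKO (20 and 2 after median-ratio scaling), with 11 at least 2-fold higher in dCD and a median of -0.87. The smooth muscle actin gene Acta2 stood at 525.0, 542.1 and 493.0 TPM in dCD and at 101.2, 105.5 and 93.6 TPM in dKO (-2.37, SE 0.0492, limma adjusted p = 4.26e-09). Its partner Tagln, an actin-binding protein gene, stood at 464.1, 487.9 and 450.8 TPM in dCD and at 73.8, 74.3 and 63.9 TPM in dKO (-2.71). Acta1, the skeletal muscle actin gene, stood at 72.2, 71.2 and 70.2 TPM in dCD and at 8.74, 9.6 and 7.96 TPM in dKO (-2.89). In WT these 3 genes were nearly silent, at means of 0.488, 2.38 and 0.143 TPM, so both mutant lines lay above WT and dCD the further. Myh9, the nonmuscle myosin heavy chain gene (-1.79), Tpm1, a tropomyosin gene (-1.61), Cnn1, the calponin gene (-1.51), and Actn1, the alpha-actinin gene (-1.29), were higher in dCD as well. The abundant cytoplasmic actin genes differed less, Actb by -0.41 and Actg1 by -0.14, and after quantile normalization Actg1 was at -0.04 and did not pass. Flna, which encodes an actin crosslinker, did not pass (-0.04, limma adjusted p = 0.191) but did after median-ratio scaling (-0.15). The regulators of the list were higher in dKO: Srf by 0.17 and its coactivator genes Mkl1 by 0.28 and Mkl2 by 0.46, although after median-ratio scaling Srf was at 0.07 and did not pass (limma adjusted p = 0.168).

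SRF binds the CArG box, and RefSeq promoter windows (250 bases before to 50 after the start) were searched for it on both strands, which the symmetric motif reads alike. Of the 21 list members with a window, 8 held a match (38.1%). A match was found in 171 of 10798 tested genes with a window (1.58%) and in 1.63% of all 32851 windows. The list was made up of smooth muscle genes and known SRF targets, so a share above that of all genes follows from its choice. Of genes at least 2-fold higher in dCD, 15 of 788 with a window held a match (1.9%). Of those higher in dKO, 8 of 355 did (2.25%), and both shares were near that of all tested genes. Of the 8 list members with a match, Srf (0.17) and Fhl1 (0.18) were higher in dKO and the rest in dCD. Among the 11 members at least 2-fold higher in dCD, 9 had a window and 2 of them held it (22.2%), Acta1 and Fhl2. Acta1, which had the largest difference of the list, Acta2, which also differed strongly, and Actg1, which differed little, are shown as the 250 bases before the start (GRCm38.p6; chr8:123894776-123895025, chr19:34255374-34255623 and chr11:120348496-120348745, all on the minus strand), with a CArG match in capitals.
Acta1: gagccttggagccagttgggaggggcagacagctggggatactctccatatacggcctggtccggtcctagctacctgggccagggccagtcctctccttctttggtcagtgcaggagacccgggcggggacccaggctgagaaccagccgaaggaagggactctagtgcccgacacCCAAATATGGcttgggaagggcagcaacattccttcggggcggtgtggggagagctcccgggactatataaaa
Acta2: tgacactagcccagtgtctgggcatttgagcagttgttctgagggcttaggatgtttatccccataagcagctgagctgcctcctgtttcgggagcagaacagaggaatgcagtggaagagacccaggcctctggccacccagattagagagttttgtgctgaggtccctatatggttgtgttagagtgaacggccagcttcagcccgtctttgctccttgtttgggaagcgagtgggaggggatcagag
Actg1: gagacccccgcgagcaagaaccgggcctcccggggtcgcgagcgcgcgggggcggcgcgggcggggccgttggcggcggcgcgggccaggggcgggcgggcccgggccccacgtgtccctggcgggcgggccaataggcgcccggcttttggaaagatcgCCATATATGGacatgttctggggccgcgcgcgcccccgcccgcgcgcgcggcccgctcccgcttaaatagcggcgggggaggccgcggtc
The match began 73 bases before the start in Acta1 and 90 bases before it in Actg1, whose log2 fold changes were -2.89 and -0.14. No strict match was found in this stretch of Acta2, which says only that these letters are not in the window. The Acta2 stretch does hold near matches, ccctatatgg with a c and ccttgtttgg with a g where the motif takes a or t. The Acta1 stretch also holds a near match, ccatatacgg.

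YAP and TEAD factor genes and their targets, which respond to cell shape and contact, leaned to dCD in the same way: 14 of 17 were higher in dCD, 4 of them at least 2-fold, and 1 was higher in dKO, with a median of -0.36. The secreted matricellular protein gene Cyr61 stood at 176.5, 167.6 and 182.3 TPM in dCD and at 28.1, 27.6 and 28.0 TPM in dKO (-2.61), with a WT mean of 24.2 TPM. Its relative Ctgf had -1.69 and the matrix protein gene Thbs1 -1.98. For Cyr61 it was dCD that stood apart, and dKO lay near WT. The junctional regulator gene Amotl2 had -1.79, and Tead4, a factor gene and the member higher in dKO, had 0.41. The list includes 6 factor genes, of which Tead2 had -0.41, Yap1 and Wwtr1 -0.11 each, and Tead3 (-0.09, limma adjusted p = 0.0919) and Tead1 (0.04, limma adjusted p = 0.419) did not pass.

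Epithelial junction genes were lower in dKO. Of 24 tested genes of epithelial adhesion, 18 were higher in dCD, 7 of them at least 2-fold, and 4 were higher in dKO, with a median of -0.71. Cdh1 stood at 12.5, 12.7 and 13.2 TPM in dKO and at 297.8, 275.9 and 297.1 TPM in dCD (SE 0.0382, limma adjusted p = 1.11e-10), with a WT mean of 169.3 TPM. The dKO libraries were far below both other lines, and dCD lay above WT. The tight junction claudin genes Cldn6 (-2.61), Cldn4 (-2.47) and Cldn3 (-1.78) and the splicing regulator gene Esrp1 (-1.16) differed in the same direction, and the WT means of Cldn6 and Cldn3, 39.8 and 19.4 TPM, lay close to those of dCD. Not every junction gene did so: Epcam was higher in dKO (0.54), as was the desmosomal cadherin gene Dsg2 (0.67), and Tjp1 did not pass (-0.05, limma adjusted p = 0.189). Mesenchymal genes split, with 7 of 15 higher in dKO and 8 higher in dCD. The matrix protease gene Mmp14 had 1.59 and the crosslinking enzyme gene Loxl1 2.38, whereas the related Lox had -2.03 and Snai1, a repressor of Cdh1, had -1.60. Twist1 had 0.92 and the neural cadherin gene Cdh2 0.26.

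Matrix genes were mostly higher in dCD. For basement membrane the counts were 12 higher in dCD and 1 higher in dKO of 16 (median -0.34), and for interstitial matrix 10 and 3 of 15 (median -0.86). The type IV collagen genes Col4a1 and Col4a2, which share a promoter region, were higher in dCD by the same measure: Col4a1 stood at 290.3, 280.7 and 285.0 TPM in dCD and at 51.0, 51.3 and 51.6 TPM in dKO (-2.45), and Col4a2 had -2.11. Sparc, a collagen-binding protein gene, stood at 444.8, 428.1 and 439.8 TPM in dCD and at 64.4, 62.8 and 61.7 TPM in dKO (-2.78). WT lay between the lines for these 3 genes, at means of 102.5, 51.1 and 254.4 TPM. Nid1 had -1.58, Agrn -1.27 and Col5a2 -1.90, and Lama5, the member of the first list higher in dKO, had 0.33. Fibronectin, Fn1, the most abundant gene of the matrix lists, differed by -0.25.

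Markers of fibroblasts and feeder cells, which also make matrix, were examined beside these groups. Of 15 markers 7 reached the filter, 3 higher in dCD and 2 in dKO, and their summed level was 90.5 to 95.0 TPM in dKO, 103.2 to 110.8 TPM in dCD and 98.7 to 104.6 TPM in WT, most of it from Fbln1. Col1a2 had -1.71, at 6.79, 6.19 and 6.38 TPM in dCD, Thy1 had -1.64 and Pdgfrb -0.68. The 2 markers at least 2-fold apart, Col1a2 and Thy1, were thus both higher in dCD. Col1a1 had 0.39 and Fbln2 0.51, and Lum, S100a4 and Fap read 0 in all dCD libraries or all but 1. Hematopoietic and endothelial markers numbered 6 tested of 11, with 3 higher on each side, and Ptprc read at most 0.0113 TPM in any dKO or dCD library. The part of other cell types in the matrix and contractile results was not tested. The 10 defining markers of embryonic stem cells were all expressed in both lines, the lowest of them, Dppa4, at 100.2, 106.7 and 101.4 TPM in dKO and 99.1, 112.2 and 105.1 TPM in dCD.

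Trophoblast genes, which mark the lineage of the placenta, were higher in dCD for 19 of 22 tested members, 15 of them at least 2-fold, and 1 was higher in dKO, with a median of -1.57. The homeobox genes Rhox6 and Rhox9 led with the keratin genes. Rhox6 stood at 74.5, 80.3 and 76.9 TPM in dCD and at 10.2, 9.41 and 9.92 TPM in dKO (-2.85), and Rhox9 had -2.97. Krt18 stood at 312.6, 320.9 and 298.7 TPM in dCD and at 47.3, 53.6 and 51.0 TPM in dKO (-2.59), with Krt8 at -2.31, Krt7 at -2.32 and Krt19 at -2.81. WT means were lower than both lines for Rhox6 (0.948 TPM), Krt18 (15 TPM) and Krt8 (21.9 TPM). Among the transcription factor genes of the lineage, Gata3 (-2.46), Cdx2 (-1.21), Tfap2c (-1.05) and Hand1 (-0.70) were higher in dCD. Cdx2 stood at only 3.95, 4.75 and 3.54 TPM in dCD and at 1.14, 1.12 and 1.32 TPM in dKO. Eomes did not pass (0.07, limma adjusted p = 0.458), and Elf5 read at most 0.0351 TPM. The Rhox genes belong to a family of related copies, so single values are uncertain.

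Genes of other lineages changed in both directions. Primitive and visceral endoderm genes numbered 10 higher in dCD and 4 higher in dKO of 17, with a median of -0.15, which was -2.11 with a minimum of 5 TPM, where fewer members were tested. The coactivator gene Cited1 (-3.28), the endocytic receptor gene Lrp2 (-2.29), its adaptor gene Dab2 (-2.46) and the matrix genes Sparc, Col4a1 and Col4a2 given above differed most, while of the defining factors Gata6 had -0.76, Gata4 0.53, and Sox7 did not pass (0.14, limma adjusted p = 0.367). Neural genes numbered 8 higher in dKO and 4 higher in dCD of 17, near the shares of 44.0% and 27.1% of all tested genes. Their median was 0.22, which was 1.25 with a minimum of 5 TPM. Sox1, an early neural plate factor gene, stood at 57.5, 61.3 and 61.5 TPM in dKO and at 18.6, 18.3 and 19.5 TPM in dCD (1.62), with a WT mean of 14.3 TPM. The midbrain factor gene En2 had 1.72 and Ncam1 1.25, but Tubb3, a tubulin of neurons, had -1.21 and Nes -0.76. Mesoderm genes numbered 7 on each side of 18, where all tested genes were more often higher in dKO. Evx1 had 2.23, the vascular receptor gene Kdr 1.27 and the Hox cofactor gene Meis1 1.46, whereas Gsc had -2.04 and Snai1 -1.60.

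The factor genes Pou5f1, Nanog and Sox2 differed little, and the naive program split. Of 14 core pluripotency genes 6 were higher in each line, with a median of -0.05. Pou5f1 stood at 1458.7, 1461.0 and 1432.0 TPM in dKO and at 1261.8, 1278.1 and 1298.7 TPM in dCD (0.18), Nanog had -0.22, and Sox2 had 0.08 (limma adjusted p = 0.0491), which turned to -0.03 and did not pass after median-ratio scaling. Of 23 naive genes 8 were higher in dKO and 11 higher in dCD, with a median of 0.00. Among those higher in dKO, Socs3, a feedback inhibitor of LIF signalling, stood at 402.1, 395.0 and 402.6 TPM in dKO and at 164.9, 157.6 and 162.6 TPM in dCD (1.30), and Stat3 (0.92), the receptor gene Lifr (0.88), Klf4 (1.07), Klf5 (0.86) and Gbx2 (1.69) differed in that direction. Il6st, the coreceptor gene for LIF, was higher in dCD (-0.12, limma adjusted p = 0.0186), and Tfcp2l1, a target of Stat3, did not pass (0.07, limma adjusted p = 0.365). WT was near dCD for Socs3, at a mean of 163.2 TPM, and for Gbx2, at 18.8 TPM. In the other set stood Tcl1, Fbxo15 and Dppa5a. Fbxo15 measured 69.6, 70.7 and 69.8 TPM in dKO against 609.7, 624.6 and 588.4 TPM in dCD (-3.10), and Dppa5a measured 1198.4, 1184.5 and 1215.3 TPM against 5029.0, 4806.3 and 4890.4 TPM (-2.03). For both the dKO libraries were the low ones, below WT means of 417.6 and 6432.7 TPM. Dppa2 (-1.96), the RNA-binding protein gene Lin28a (-1.69) and Fgf4 (-1.38) differed alike, and Lin28b, the relative of Lin28a, was higher in dKO (1.64).

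Genes of the formative and primed states, which follow the naive state, changed in both directions. Of 19 tested, 7 were higher in dKO and 9 higher in dCD, where 44.0% and 27.1% of all tested genes were. The median was -0.17 (-0.25 to 0.05 over the alternatives), against 0.10 for all tested genes. Tcf15 and the ligand gene Wnt8a (1.83) were higher in dKO, while Otx2 (-1.40), a factor of the formative state, and Dnmt3b (-1.38) were higher in dCD. Fgf5, the usual marker of that state, had means of 1.48 TPM in dKO and 1.78 TPM in dCD and did not pass (-0.17, limma adjusted p = 0.239).

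The genes around Dnmt3l differed together. Its neighbours Aire, best known as the regulator of self antigens in the thymus, and Icosl, an immune ligand gene, were higher in dCD too. Aire stood at 53.3, 50.3 and 56.6 TPM in dCD and at 1.62, 1.22 and 2.56 TPM in dKO (SE 0.151, limma adjusted p = 6.81e-08), and Icosl at 22.1, 20.4 and 22.7 TPM and at 5.34, 5.61 and 5.68 TPM (-1.79). All 3 were highest in WT, at means of 553.4, 97.6 and 36.3 TPM for Dnmt3l, Aire and Icosl. The de novo methyltransferase genes followed in direction, Dnmt3b at 103.8, 106.9 and 102.6 TPM in dCD and 39.2, 39.9 and 39.7 TPM in dKO (-1.38), and Dnmt3a at -0.84. The maintenance enzyme gene Dnmt1 (0.26) and the oxidase gene Tet1 (0.45) were higher in dKO, and Tet2 did not pass (0.05, limma adjusted p = 0.268). In the list of 16 as a whole, 8 were higher in dKO and 6 in dCD, or 4 and 6 after median-ratio scaling.

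Imprinted genes, expressed from 1 parental copy, changed in both directions. Of 14 maternally expressed genes 8 were higher in dCD, 6 at least 2-fold, and 5 higher in dKO, with a median of -0.75; of 18 paternally expressed genes 10 were higher in dKO, 3 at least 2-fold, and 6 higher in dCD, with a median of 0.26, or 9 and 7 after median-ratio scaling. Over all genes 44.0% were higher in dKO and 27.1% higher in dCD. The pair H19 and Igf2, which share enhancers, differed in opposite directions. Igf2, a growth factor gene, stood at 175.4, 174.4 and 164.9 TPM in dKO and at 75.7, 65.8 and 70.4 TPM in dCD (1.27), and its WT mean was 3.83 TPM, so both lines lay far above WT. For H19 dCD alone was high, as given above. At the Dlk1 and Meg3 locus the maternal noncoding RNAs Meg3 (-1.13), Rian (-1.06) and Mirg (-0.95) were higher in dCD. Ascl2 had -1.77 and Phlda2 -1.63. Among paternal genes Ndn had 1.59 and Mest 1.24, while Airn (-1.36) and Rtl1 (-0.73) were higher in dCD. Igf2r, the maternal gene that the noncoding RNA Airn overlaps, had 0.93. Peg10 did not pass (0.01, limma adjusted p = 0.901). RNA of the 2 parental copies cannot be told apart in these values.

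Germline genes were more often higher in dCD, with 14 of 24 against 6 higher in dKO and a median of -0.34. Stra8 stood at 32.9, 32.9 and 31.3 TPM in dCD and at 0.287, 0.28 and 0.383 TPM in dKO (SE 0.0626, limma adjusted p = 6.10e-10). The RNA-binding protein gene Dazl had -2.42, the synaptonemal complex gene Sycp3 -2.13, Mael -1.84 and the ribosomal protein retrogene Rpl10l -2.51. Tex13 was the exception at over 2-fold, at 41.3, 40.6 and 43.1 TPM in dKO and 2.24, 1.99 and 2.5 TPM in dCD.

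Cholesterol synthesis genes were all higher in dKO: 24 of 24 tested genes passed in that direction, against 44.0% of all genes, with a median of 0.61. After median-ratio scaling 23 passed and the median was 0.51. The size was modest in most. Hmgcs1, an early enzyme gene of the pathway, stood at 390.8, 399.4 and 421.2 TPM in dKO and at 268.7, 254.9 and 256.5 TPM in dCD (0.63). The late enzyme genes Dhcr7 (0.93) and Cyp51 (0.86), and the feedback gene Insig1 (0.98), differed more. Srebf2, whose product switches the pathway on, had 0.47. WT was near dCD for Dhcr7, with a mean of 30.8 TPM where dCD had 30.3, 28.3 and 31.4 TPM. Fatty acid synthesis genes numbered 8 higher in dKO and 3 higher in dCD of 13, with Scd2 at 0.65 and Srebf1 at 0.63.

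Cell cycle regulators were mostly higher in dKO, with 19 of 25 against 4 higher in dCD and a median of 0.33 (18 and 4 after median-ratio scaling). Ccnd1, the cyclin D1 gene, stood at 214.2, 207.7 and 209.2 TPM in dKO and at 46.9, 46.7 and 47.2 TPM in dCD (2.14), with a WT mean of 42.1 TPM. Its kinase partner gene Cdk6 had 1.34 and the factor gene E2f2 1.37. The inhibitor genes Cdkn2c (1.20), Cdkn2a (1.09), Cdkn1a (0.93) and Cdkn1b (0.77) were higher in the same line. The inhibitor gene Cdkn2b was higher in dCD (-0.21, limma adjusted p = 0.0112). Cdkn2a stood at 195.9, 183.5 and 190.3 TPM in dKO and at 88.1, 87.0 and 91.1 TPM in dCD. Ccnd3 was higher in dCD (-0.39), and so was Cdk2 (-0.23). Genes of p53 and its targets numbered 16 higher in dKO and 6 higher in dCD of 27, with a median of 0.22. Over all tested genes 44.0% were higher in dKO and 27.1% higher in dCD. The membrane protein gene Perp stood at 80.4, 83.9 and 84.3 TPM in dKO and at 22.7, 23 and 23.3 TPM in dCD (1.80), and Plk2 had -0.59.

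Ligand and receptor genes differed one by one. In the FGF family 8 of 18 genes were higher on each side, 5 in dKO and 4 in dCD at least 2-fold. Among all tested genes 44.0% were higher in dKO and 27.1% in dCD, with 3.73% and 7.62% at least 2-fold. The FGF count higher in dKO was thus near the share of all genes. Fgf1 stood at 13.2, 13.7 and 15.1 TPM in dKO and at 0.872, 0.777 and 0.685 TPM in dCD (3.08), and Fgf18 had 2.02. Fgf4, the main FGF of embryonic stem cells, stood at 471.6, 458.6 and 469.2 TPM in dCD and at 179.0, 176.2 and 179.4 TPM in dKO, and Fgf10 (-2.19) and Fgf3 (-1.62) were also higher in dCD. Of the receptor genes Fgfr2 had -1.0 and Fgfr1 -0.38. In the Nodal pathway the ligand gene Nodal did not pass (0.01, limma adjusted p = 0.765), and after median-ratio scaling it was at -0.10. Its feedback inhibitor genes Lefty2 (2.08) and Lefty1 (1.39) were higher in dKO, whereas the cofactor gene Foxh1 was lower there, at 23.6, 24.2 and 25 TPM against 90.7, 93.8 and 95.4 TPM in dCD (-1.90). The activin subunit gene Inhbb had 2.55. Wnt feedback and target genes numbered 9 higher in dCD and 4 in dKO of 19, with the inhibitor gene Dkk1 at -1.96, Axin2 at -0.54 and Notum at the other end. Of 18 BMP pathway genes 13 were higher in dKO and 5 in dCD, and the inhibitor gene Nog, at 11, 11 and 11.5 TPM in dCD and 1.07, 1.49 and 1.22 TPM in dKO, had the largest difference (-2.43). Among retinoic acid genes the synthesis gene Aldh1a2 (-1.63) was higher in dCD and Meis1 in dKO.

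Among chromatin genes the other H3K4 methyltransferases were slightly higher in dKO, Setd1b by 0.53, Setd1a by 0.36 and Kmt2a by 0.34, and with Kmt2d 4 of 6 genes passed in that direction; Kmt2b was higher in dCD (-0.22). Of the shared COMPASS subunit genes Rbbp5 had 0.60, at 126.7, 127.9 and 133.4 TPM in dKO and 85.7, 84.1 and 84.9 TPM in dCD, while Wdr5 (-0.39) and Ash2l (-0.32) were higher in dCD. Over the 13 subunits 6 were higher in dKO and 4 in dCD, near the shares of all tested genes, or 2 and 6 after median-ratio scaling. Genes of acetyltransferases and demethylases that act beside these complexes stayed within 0.45 in size, with Crebbp at 0.45 and Kat7 at -0.41. For Mediator and cohesin 17 of 28 were higher in dKO and 3 in dCD (7 and 5 after median-ratio scaling), led by the cohesin gene Stag2 (0.82). Of the BAF remodelling genes 15 of 24 were higher in dKO and 5 in dCD (12 and 8 after median-ratio scaling), with Arid1a at 0.63 and the alternative ATPase gene Smarca2 at -1.12. Genes of Pol II pausing and elongation numbered 10 higher in dKO and 9 in dCD of 27, and after median-ratio scaling 7 and 13. Ctr9 had -0.52 and Aff1 0.41.

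Stress and immune genes gave mixed counts. Nucleic acid sensing genes numbered 7 higher in dKO and 8 higher in dCD of 21. Rnf213, an interferon-responsive ubiquitin ligase gene, stood at 32.8, 30.0 and 33.7 TPM in dCD and at 1.34, 1.28 and 1.49 TPM in dKO (-3.81), with a WT mean of 41.8 TPM, and Oas2 had -1.80. In the integrated stress response the amino acid enzyme genes Cth (-2.71) and Asns (-1.36) were higher in dCD, while Phgdh was higher in dKO (0.65). Cth stood at 8.98, 9.31 and 9.62 TPM in dKO and at 67.2, 65.3 and 66.5 TPM in dCD, with a WT mean of 73.3 TPM, so dKO was the line apart. Of the small heat shock genes Hspb8 had -2.32 and Hspb2 1.52. Immediate early genes were higher in dCD for 11 of 16 and higher in dKO for 5, with Nr4a1 at -1.37 and Fos at -0.94. Cytosolic ribosomal protein genes differed little and their direction turned with scaling: 6 of 45 were higher in dKO and 17 in dCD, 0 and 36 after median-ratio scaling, and 17 and 10 after quantile normalization. Oxidative phosphorylation genes numbered 20 higher in dKO and 5 in dCD of 40, or 11 and 15 after median-ratio scaling. Over all tested genes 44.0% were higher in dKO and 27.1% higher in dCD.

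**Figure D4:**
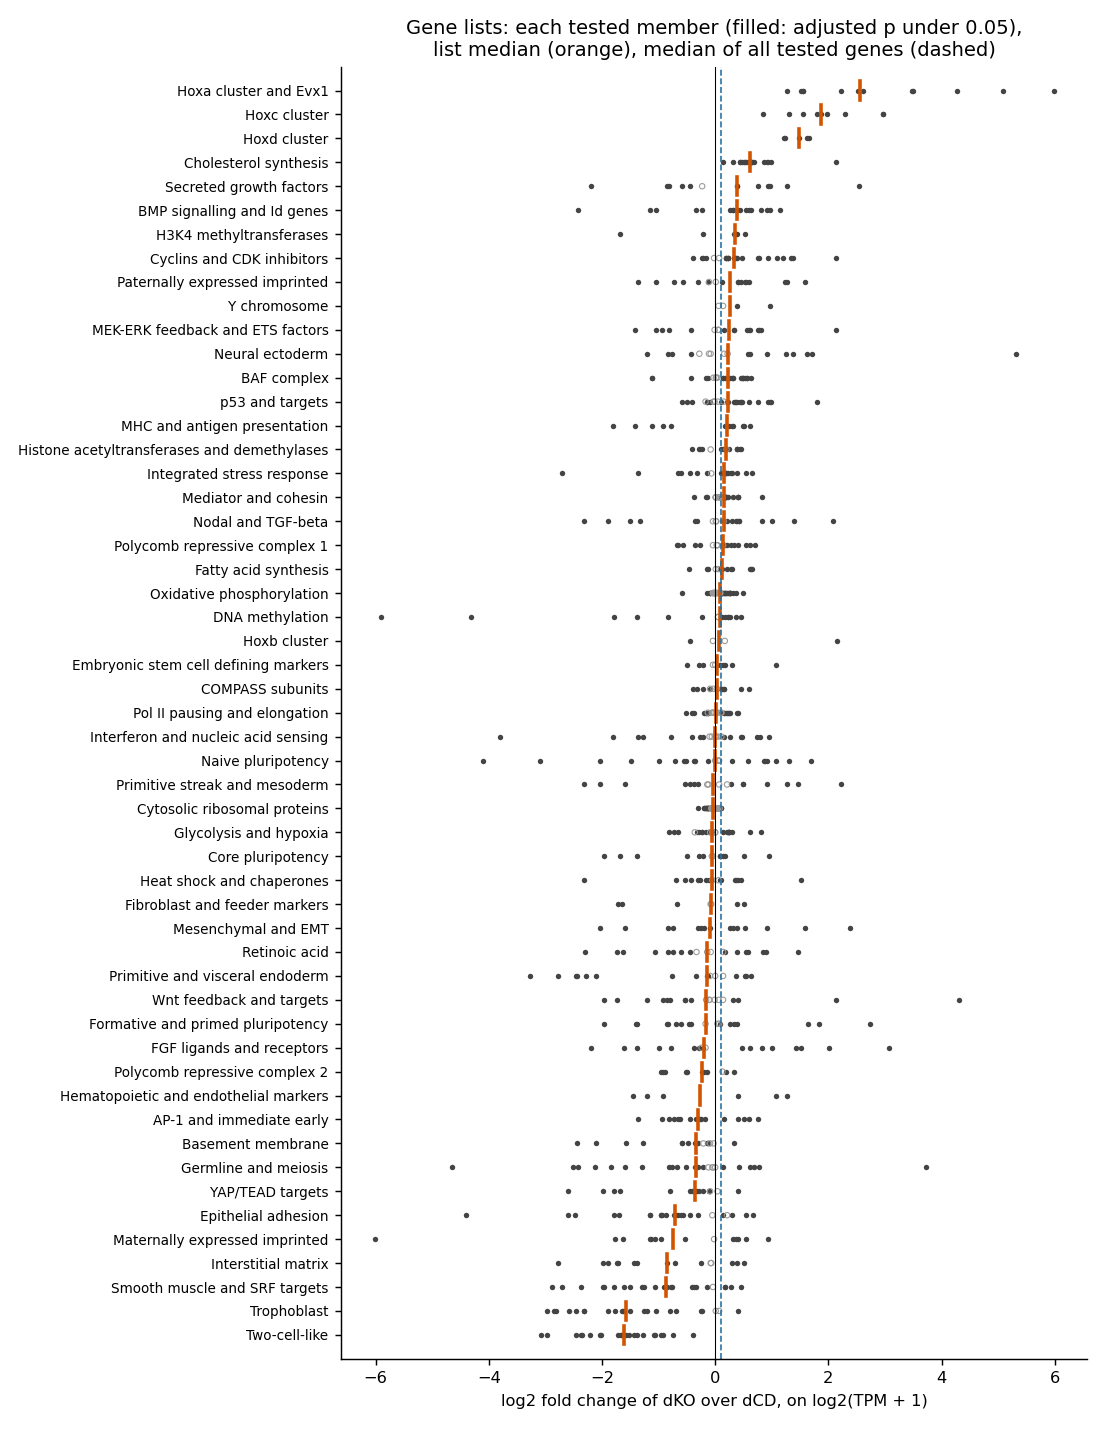
Log2 fold change of dKO over dCD for every tested member of the 53 gene lists, filled where the limma adjusted p is under 0.05 and open otherwise, with the list median in orange and the median of all tested genes (0.10) as a dashed line. The Hoxa, Hoxc and Hoxd lists lie wholly to the right of 0, as do the cholesterol synthesis genes, and the 2-cell-like genes lie wholly to its left.

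The WT libraries, which entered neither the filter nor the fit, were placed beside the genes that differed at least 2-fold. Since the dKO and dCD values chose these genes, the position of WT is a description with no test. Of the 580 genes higher in dKO, WT lay nearer dCD for 478 (82.4%) and nearer dKO for 102. Its mean was below both lines for 232, between them for 332 and above both for 16. Of the 1185 genes higher in dCD, WT lay nearer dCD for 758 (64.0%) and nearer dKO for 427 (36.0%), and it was below both for 204, between for 541 and above both for 440. Over all tested genes WT was nearer dCD for 65.2%. Hoxa10 and Socs3 are examples of a gene high in dKO with dCD near WT, Cth and Dnmt3l of a gene low in dKO, Zscan4d and Cyr61 of a gene high in dCD with dKO near WT, and Acta2 and Krt18 of a gene above WT in both lines and highest in dCD. Genes with a WT mean under 1 TPM made up 22.1% of those higher in dKO (128 genes) and 17.7% of those higher in dCD (210 genes), where they made up 7.59% of all tested genes.

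**Figure D5:**
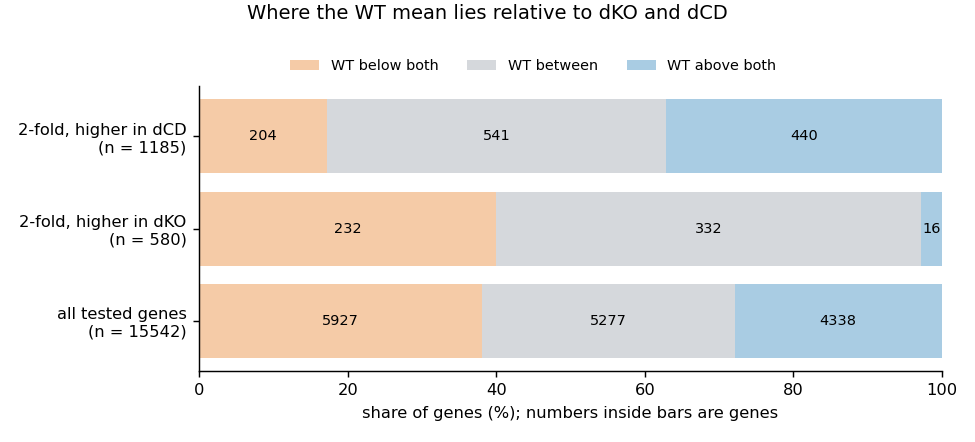
Share of genes (%) whose WT mean lies below both dKO and dCD, between them or above both, for the genes at least 2-fold higher in dCD, those at least 2-fold higher in dKO and all tested genes, with gene numbers inside the bars. WT lies above both lines for 440 of the 1185 genes higher in dCD and for 16 of the 580 higher in dKO.

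Genes that differed 2-fold in the same direction stood side by side in places. Among tested genes in chromosome order (14317 of the 15542 matched a GRCm38.p6 gene by symbol, 92.1%), 16 runs of at least 3 neighbours were higher in dKO, with 71 genes in all, and 32 runs were higher in dCD, with 120 genes. The longest run in dKO was the Hoxa cluster on chromosome 6, with 15 genes that end at Evx1, and the Hoxc cluster gave 8 in a row on chromosome 15 and the Hoxd cluster 5 on chromosome 2. On chromosome 9, Islr2, Pml, Stoml1 and Loxl1 formed a run of 5 with a gene known by a clone symbol only; Pml, whose product builds nuclear bodies, had means of 303.7 TPM in dKO, 58.8 TPM in dCD and 199.9 TPM in WT (2.35). Runs in dCD were shorter, at most 6 genes, and many held families of copies such as the Zscan4 genes on chromosome 7, whose reads may be shared. Others held mostly distinct genes. Nphs1 and Kirrel2, which encode partner proteins of the kidney filter, lay in a run of 5 on chromosome 7 with log2 fold changes of -3.04 and -2.57. That run also counts the antisense gene Nphs1os (-1.60), whose reads and those of Nphs1 cannot be told apart without a stated strand setting. Aire, Dnmt3l and Icosl formed a run on chromosome 10, Col4a1 and Col4a2 with Rab20 on chromosome 8, and Krt7, Krt8 and Krt18 on chromosome 15. Whole chromosomes shifted little: the median log2 fold change of a chromosome less that of all other genes ran from -0.04 (chromosome 4) to 0.08 (chromosomes 13 and 14). Genes at least 2-fold higher in either line were shorter than tested genes in general, with median lengths of 2895 bases in dKO and 2712 bases in dCD against 3404 bases.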

How the data were processed

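The authors deposited TPM values, 1 for each gene in each library, beside the length of every gene. HISAT2, featureCounts and DESeq2 are among the authors' tools, per the submitters' processing notes, which also name mm9 as the build. Their versions and roles, the gene annotation and the settings for strand and multi-mapping reads are not named in the sources used here. TPM keeps proportions within a library, so a few abundant genes can shift the rest. Multiplying the deposited TPM by length gave whole reads for 100% of values (tolerance 0.01), which set the depths and the relative counting error, and served an alternative test.

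Libraries were grouped by title. Genes at 1 TPM or more in 3 or more of the 6 libraries entered the test on log2(TPM + 1) by limma 3.58.1 in R 4.3.3 with an intensity trend, genotype as the only term and Benjamini-Hochberg adjustment over all 15542 genes. Replicate numbers were not used as a block. Tables and figures used Python 3.11.15, pandas 2.3.3, numpy 2.4.6 and matplotlib 3.10.9. The fit was tested on simulated data. Named genes are Kmt2c and Kmt2d, the 12 largest differences in each direction, and up to 4 passing members of each list by size; other genes were named after their values were seen. The comparison and the 53 gene lists were chosen with earlier results of these data known. Symbols damaged to dates (27 rows, 21 tested) were kept in the fit and not named. Alternatives were a pseudocount of 0.1, other filters, all 9 libraries in 1 fit, other scalings, voom, limma without trend, a replicate block, a test against 1.5-fold and leaving out each library. Samples of other assays in the series were not used here, and values of some list members are not reported here.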

Additional observations from a re-analysis of the deposited data

How the results depend on the processing

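The number of genes at least 2-fold apart at an adjusted p under 0.05 by limma was 1765, and it ran from 1193 with a minimum of 5 TPM to 2531 with voom on the recovered reads, with 1738 after quantile normalization, 1822 after median-ratio scaling and 2462 with a pseudocount of 0.1. With only the genes at 1 TPM or more in all 6 libraries, chosen after seeing the data, it was 1131, and fewer genes were counted there. Leaving out each library in turn gave 1778 to 1800 genes at 2-fold and 10427 to 10681 at the adjusted p alone. In each alternative that tested them, 96.5% to 100% of the 1765 genes passed in the same direction. Median-ratio scaling moved the median of all genes by -0.097 and reversed Rps27a to -0.01, Nodal to -0.10 and Sox2 to -0.03, from 0.10, 0.01 and 0.08. The replicate numbers did not pair the libraries: deviations of same-numbered libraries correlated at -0.052, 0.007 and -0.023 across genes, and no dKO library correlated best with its own number. With the replicate block 1766 genes differed at least 2-fold and 10892 passed. Depth limits genes near 1 TPM, and 10 of the 23 tested 2-cell-like genes and 6 of the 12 Hoxa and Evx1 genes passed the filter through 1 line only.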

Other observations

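Beyond the groups above, histone genes that stand in clusters on chromosome 13 were at least 2-fold higher in dKO in runs of neighbours: Hist1h2bm, Hist1h4j, Hist1h4k and Hist1h2ak had log2 fold changes of 1.15, 1.03, 1.20 and 1.09, and Hist1h2be, Hist1h1e and Hist1h2ac had 1.15, 1.64 and 1.08. Genes of the same histone type, such as Hist1h4j and Hist1h4k, are closely similar copies. RNA of these clustered genes mostly lacks a poly(A) tail, so that single values in polyadenylated RNA are uncertain. The ligand genes Raet1e, H60b and Raet1d, recognised by natural killer cells, formed another run in dKO, at 1.30, 2.57 and 1.41. In dCD, the neighbouring genes Tinagl1, Serinc2 and Fabp3 had -3.35, -1.05 and -1.31. Genes at least 2-fold higher in dCD made up 10.5% of the tested genes on chromosome 7 and 10.6% of those on chromosome X, against 7.62% of all tested genes. Chromosome X also held 6.46% at least 2-fold higher in dKO, against 3.73% of all tested genes. Chromosomes 14 (6.49%) and 6 (6.28%) held similar shares higher in dKO.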
